A study of Mus musculus with 23 samples.

Results

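Among the 12 arrays of left ventricles taken 20 days after birth (P20), 3 arrays stood apart from the other 9 in the balance of 2 clock genes, Arntl and Dbp. For each array, the log2 signal of the brightest Dbp probe was subtracted from that of the brightest Arntl probe, and the sides were chosen by this measured difference alone. Arrays above -6.5 were placed on a high-Arntl side and those below it on a low-Arntl side. The high side held 3 arrays, WT 5, WT 6 and Efnb1cKO 6, and the low side held the other 9, which were 4 WT and 5 Efnb1cKO arrays. These 12 arrays belong to a series of 23, each from the left ventricle of 1 male mouse of a mixed S129/S4 and C57BL/6 background. WT mice were wild type and Efnb1cKO mice lacked Efnb1, the X-linked gene of the membrane ligand ephrin-B1, in cardiomyocytes only, so other cells of the ventricle still carried the gene. The Cre line that drives the deletion and the time of day at sampling are not given in the sources used here. All mice had chow and lived under equal spans of light and dark from birth. At P20 there were 6 WT and 6 Efnb1cKO mice, and at 60 days (P60) 5 WT mice, numbered 1, 3, 4, 5 and 6, and 6 Efnb1cKO mice. The labels record no clock phase, so the sides are named here by the genes that set them.

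The circadian clock of each cell is a loop of transcription. CLOCK and BMAL1, the product of Arntl, bind E-boxes and switch on the Per and Cry genes, whose products return to block them, and also Nr1d1, Nr1d2, Dbp, Tef and Ciart. NR1D1 and NR1D2 in turn repress Arntl and Nfil3 through ROR elements, where ROR proteins activate, and DBP, TEF and HLF act at D-boxes against NFIL3. In a tissue kept in step by the body, Arntl and Nfil3 therefore peak in the opposite part of the day from Nr1d1, Dbp and Per3. The heart has such a clock, and genes of its fuel use follow it.

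The probes that set the sides are shown because every later value rests on this split. Both are 60 bases long, and the array headers place them on mm9, Arntl at chr7:120456978-120457037 and Dbp at chr7:52965265-52965324.
Arntl probe: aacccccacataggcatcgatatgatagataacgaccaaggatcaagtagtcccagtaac
Dbp probe: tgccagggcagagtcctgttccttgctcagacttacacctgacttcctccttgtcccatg
The promoters of 4 clock genes show the elements of the loop in genes that fell or rose between the sides. They come from RefSeq on GRCm38.p6, run from 250 bases before to 50 bases after an annotated start, and are printed in the direction of the gene with the matched element in capitals. Arntl (chr7:113207261-113207560, plus strand) held the ROR core TAGGTCA 30 bases after its start, inside the longer ROR element, in which AAN precedes the core. A second annotated Arntl start nearby had no match in its window. Nfil3 (chr13:52980990-52981289, minus strand) held the reverse of the ROR core, TGACCTA, 12 bases before its start. Ciart (chr3:95882179-95882478, minus strand) held 3 copies of the E-box CACGTG. Per3 (chr4:151044616-151044915, minus strand) held 2 copies of the D-box TTATGTAA.
Arntl promoter: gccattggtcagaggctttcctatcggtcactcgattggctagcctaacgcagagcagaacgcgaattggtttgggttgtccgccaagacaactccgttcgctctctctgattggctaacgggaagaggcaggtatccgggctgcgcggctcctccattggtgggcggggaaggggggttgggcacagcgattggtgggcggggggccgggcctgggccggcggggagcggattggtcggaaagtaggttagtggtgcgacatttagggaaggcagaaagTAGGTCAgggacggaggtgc
Nfil3 promoter: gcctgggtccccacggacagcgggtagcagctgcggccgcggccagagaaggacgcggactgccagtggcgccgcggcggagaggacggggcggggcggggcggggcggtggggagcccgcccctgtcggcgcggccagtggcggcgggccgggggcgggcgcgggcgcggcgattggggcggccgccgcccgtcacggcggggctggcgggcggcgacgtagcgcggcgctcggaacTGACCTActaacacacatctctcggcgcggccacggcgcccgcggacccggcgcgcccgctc
Ciart promoter: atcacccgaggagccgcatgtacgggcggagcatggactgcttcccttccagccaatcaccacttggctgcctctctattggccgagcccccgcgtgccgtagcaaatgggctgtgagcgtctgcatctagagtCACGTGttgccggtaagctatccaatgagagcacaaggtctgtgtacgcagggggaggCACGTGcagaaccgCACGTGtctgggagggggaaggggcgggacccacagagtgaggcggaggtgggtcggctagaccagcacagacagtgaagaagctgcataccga
Per3 promoter: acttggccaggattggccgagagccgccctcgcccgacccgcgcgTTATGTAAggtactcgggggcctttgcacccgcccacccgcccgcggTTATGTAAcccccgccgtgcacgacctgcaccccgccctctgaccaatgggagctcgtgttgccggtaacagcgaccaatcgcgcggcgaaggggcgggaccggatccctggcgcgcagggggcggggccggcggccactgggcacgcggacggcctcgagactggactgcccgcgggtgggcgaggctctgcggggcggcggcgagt
Of 32851 promoters of this length in the table, 7.15% held the E-box on either strand, 0.938% the D-box, 2.61% the ROR core and 0.219% the longer ROR element, which contains the core. Of the 20 genes in the lists of clock activators, repressors and PAR bZIP factors, 17 had a promoter in the table. The E-box was found in 5 of them, Bhlhe41, Ciart, Cry1, Per1 and Tef, the D-box in Per3 alone, and the ROR core in Arntl and Nfil3. A match describes letters in this window and does not show that a factor binds there.

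On the 3 high arrays, Arntl minus Dbp was -4.76 in WT 5, -4.16 in WT 6 and -4.91 in Efnb1cKO 6. On the 9 low arrays it ran from -9.82 to -8.23 with a median of -8.91. The nearest arrays across the threshold, Efnb1cKO 6 and WT 2, were 3.32 log2 units apart, and all 6 pairings of Arntl and Dbp probes placed the same 3 arrays on the high side. Arntl stood at 7.75, 8.08 and 7.63 on the high side and between 5.11 and 6.18 on the low side, and Dbp, a PAR bZIP activator, at 12.51, 12.24 and 12.53 against 14.40 to 14.93. These levels are log2 intensities scaled to each array's 75th percentile. Since these genes set the sides, their values are a description and were not tested. Because the sides were read from the arrays, p-values between them describe how far other genes separate along this split, and genes that vary with Arntl and Dbp for any reason are favoured.

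**Figure D1:**
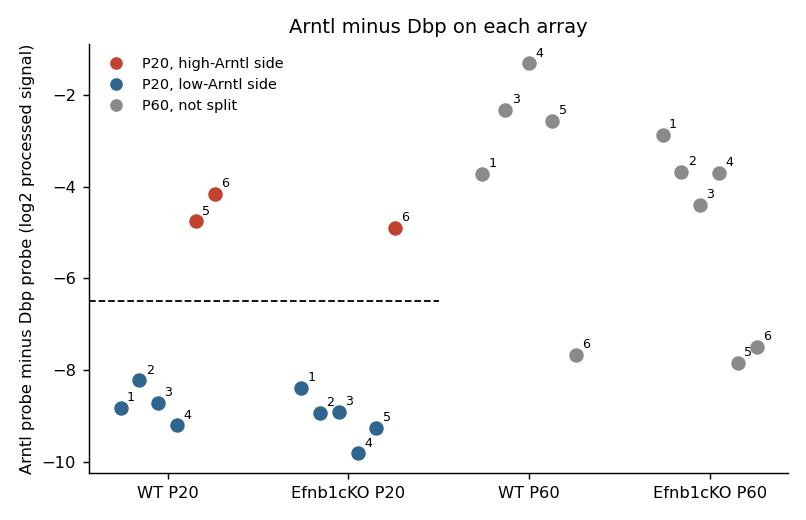
Arntl minus Dbp (difference of log2 signals) in each of the 12 P20 and 11 P60 arrays, grouped by genotype and age with the replicate number beside each point, and the value that split the P20 arrays as a dashed line. The 3 high P20 arrays lie between -4.91 and -4.16 and the 9 low ones between -9.82 and -8.23, while the P60 arrays run from -7.84 to -1.32.

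Both genotypes were found on each side, and the measures of array quality given here overlapped between the sides. High arrays were 2 of 6 WT and 1 of 6 Efnb1cKO, and the replicate numbers 1 to 4 held only low arrays, while the high arrays bore 5, 6 and 6. Slide 1 held 4 low arrays, slide 2 held 1 high and 3 low, and slide 3 held 2 high and 2 low. Between 59.1% and 62.2% of probes were well above background on the high arrays and 59.7% to 62.5% on the low arrays, and the 75th percentile of the signal was 538 to 604 against 441 to 609 intensity units, so both ranges overlapped. No spot was saturated. Pearson's r across probes was 0.993 to 0.996 between arrays of the same genotype and side and 0.991 to 0.993 across the sides. Principal components of the P20 arrays were taken without the Arntl and Dbp probes, after the mean of each genotype was subtracted from every probe. The first, with 25.3% of the variance that was left, placed the high arrays at 36.2, 36.2 and 41.4 and the low arrays from -23.7 to -1.72. An age score built from genes that differ between P20 and P60 was 0.743 to 0.790 on the high side and 0.790 to 0.870 on the low side, below the P60 arrays at 1.178 to 1.231. Slide therefore moved with the sides in part. The age score nearly followed them, with Efnb1cKO 6 of the high side and Efnb1cKO 5 of the low side both at 0.790. It was built from 19048 probes of these same arrays, so probes that differ between the P20 sides could enter it. Fits with the slide and with the age score are given beside the counts.

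The 2 sides differed across a large share of the transcriptome. With genotype as a covariate, 6337 of 35838 probes tested (17.7%) passed an adjusted p of 0.05 in limma, of which 2745 were higher (7.66% of those tested) and 3592 lower (10%) on the high side. With each array centred on its median, 4267 probes passed and 56.4% of them were higher, against 43.3% in the fit reported here, so the share in each direction depended on the centring. Most of these differences were small, with a median size of 0.31 log2 among called probes, and 136 probes were over 2-fold higher and 114 over 2-fold lower. The values of the 3 high arrays did not overlap those of the 9 low arrays for 6259 probes (17.5%). The test took in probes that stood well above background on 3 or more P20 arrays, and the high side holds exactly 3, so a gene seen only there could enter only by being higher. In whole tissue, fewer cells of a type and less RNA per cell cannot be told apart.

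The number of calls depended on the few high arrays and on what else was fitted, although the first principal component set all 3 apart. Leaving out WT 5, WT 6 or Efnb1cKO 6 left 3630, 3700 and 3798 probes past the threshold, and leaving out any 1 of the low arrays left 5065 to 6511. With the slide as a block 3410 probes passed, and on the 2 slides that hold both sides, a choice made after the data were seen, 2793. With the age score as a covariate 1075 passed, but that score nearly follows the side, so this fit can hardly tell them apart. Among WT arrays alone 2551 probes passed, and among Efnb1cKO arrays alone, with 1 high array, 90.

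Among the activators of the clock loop beside Arntl, Clock was higher on the high side and Rora did not pass the test. Clock, which encodes the partner of BMAL1, stood at 10.61, 10.64 and 10.51 on the high arrays and at 9.82 to 10.22, median 9.98, on the low arrays. The sides did not overlap, and the difference was 0.58 log2 (SE 0.06, adjusted p = 0.00026). Rora, a nuclear receptor that activates at ROR elements, stood at 12.13, 12.10 and 12.09 inside the low range of 12.00 to 12.17, and its difference of 0.02 did not pass the test (SE 0.04, adjusted p = 0.81).

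Of the 10 clock repressors, 7 fell and 1 rose on the high side, against 10% of all probes lower and 7.66% higher, with a median difference of -0.56 against -0.03 over all probes. Nr1d1, which encodes the nuclear receptor REV-ERBα that represses Arntl, was at 8.28, 8.39 and 8.44 on the high arrays and 9.51 to 9.89, median 9.84, on the low arrays. Every high array lay more than 1 log2 unit below every low one, and the gene was 2.71-fold lower (-1.44 log2, SE 0.08, adjusted p = 1.06e-05). The difference was -1.55 among WT arrays and -1.26 among Efnb1cKO arrays. Its relative Nr1d2 was at 11.81, 11.44 and 11.67 against 12.12 to 12.40 and fell by 0.62 (SE 0.09, adjusted p = 0.00129). Ciart, a repressor of CLOCK and BMAL1 whose promoter with 3 E-boxes is printed above, was at 5.10, 4.61 and 5.19 against 6.14 to 6.98. It was 3.08-fold lower on the high side (-1.62 log2, SE 0.15, adjusted p = 0.000108).

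Of the 3 Per genes, which encode repressors that act with the CRY proteins, 2 fell. Per3, with its pair of D-boxes, was at 9.49, 9.49 and 9.51 on the high arrays and 10.29 to 10.67, median 10.37, on the low arrays, and fell by 0.91 (SE 0.08, adjusted p = 7.17e-05). Per2 was at 10.32, 10.16 and 10.51 against 10.54 to 10.91, with the nearest arrays almost touching, and fell by 0.32 (SE 0.09, adjusted p = 0.0342). A second Per2 probe did not pass (-0.36, adjusted p = 0.212), and leaving out 1 array ended the call of the first in 7 of 12 cases (WT 1 to 6 and Efnb1cKO 5, adjusted p up to 0.152). Per1 was at 12.43, 11.43 and 12.46, so that WT 6 was the lowest of all 12 arrays and the other high arrays the highest, around a low range of 11.65 to 12.41. Its difference of 0.12 did not pass (SE 0.21, adjusted p = 0.75). Cry1 was higher, at 4.54, 4.90 and 4.74 against 4.10 to 4.50 (difference 0.41, SE 0.11, adjusted p = 0.0254), a call lost without WT 6 or Efnb1cKO 6 (adjusted p up to 0.132). The Cry1 difference was 0.11 with normexp background correction (adjusted p = 0.328) and 0.21 with the authors' values, and its call was also lost with the slide as a block (adjusted p = 0.109). Cry2 had a difference of 0.03 with overlapping sides (SE 0.07, adjusted p = 0.848). Of the E-box binding repressors, Bhlhe40 fell by 0.91 (SE 0.10, adjusted p = 0.000377) and Bhlhe41 by 0.50 (SE 0.08, adjusted p = 0.002), both without overlap.

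Of the factors that act on D-boxes, both activators fell and the repressor rose. Tef, an activator, was at 14.40, 14.20 and 14.29 on the high side and 14.72 to 14.90 on the low side and fell by 0.53 (SE 0.05, adjusted p = 0.000202). Hlf, also an activator, was at 8.77, 8.76 and 8.65 against 8.92 to 9.92 and fell by 0.54 (SE 0.15, adjusted p = 0.0312), a call lost without WT 3, WT 5, WT 6 or Efnb1cKO 6 (adjusted p up to 0.228). Nfil3, the repressor at the same boxes, rose, with 11.13, 11.10 and 10.74 against 9.86 to 10.46 and a difference of 0.72 (SE 0.10, adjusted p = 0.000859). None of the 3 overlapped between the sides. Of the 16 clock genes in these 3 lists that were tested, 13 passed, against 17.7% of all probes, and all 13 had the same direction among WT and among Efnb1cKO arrays, the latter with 1 high array only. The count was 4 of 16 in a fit of all 23 arrays, where 6402 of 35838 probes passed, 7 with the age score as a covariate, where 1075 did, and 2 in Efnb1cKO arrays alone, where 90 of 35836 did.

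**Figure D2:**
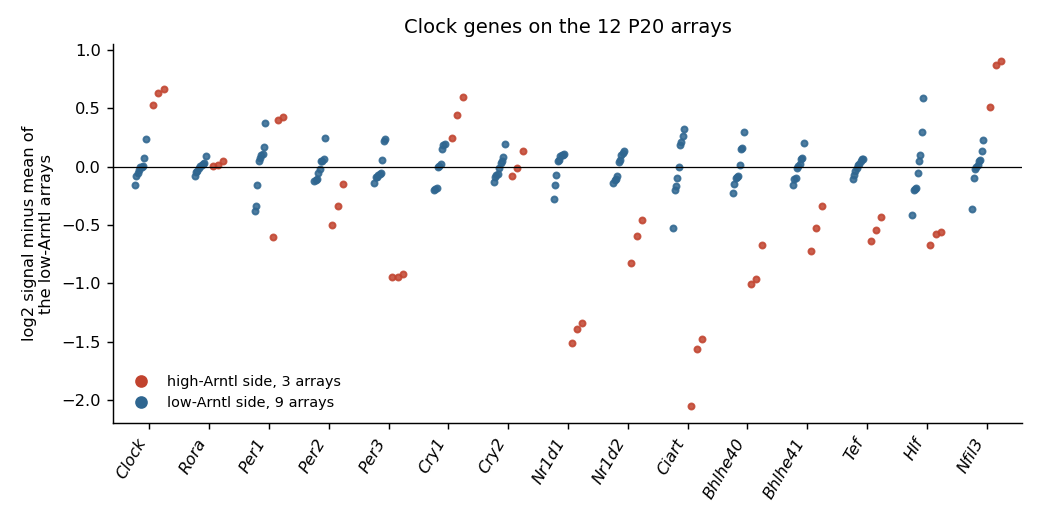
Clock genes on each of the 12 P20 arrays, as the log2 signal minus the gene's mean over the low side, 1 point per array and the sides in colour. Nr1d1, Ciart, Per3 and Tef lie lower and Clock and Nfil3 higher on the 3 high arrays, while Rora, Per1 and Cry2 overlap.

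Among 12 kinases, ligases and partners of the clock proteins, 2 rose and 2 fell, against 17.7% of all probes called in either direction. Timeless fell by 0.40 (adjusted p = 0.00455) and the deubiquitinase gene Usp2 by 0.31 (adjusted p = 0.0114). Sfpq, whose product binds the PER complex, rose by 0.24 (adjusted p = 0.0126), and Csnk1e, a kinase of the PER proteins, by 0.20 (adjusted p = 0.0463). The calls of Usp2 and Sfpq were lost without WT 6 (adjusted p up to 0.0545 and 0.0612), and that of Csnk1e without any 1 of 10 arrays (up to 0.166). Other probes did not all pass, with 1 of Timeless at -0.20 (adjusted p = 0.337), 1 of 2 of Csnk1e at 0.06 (adjusted p = 0.585) and 2 of 4 of Sfpq at 0.17 and -0.15 (adjusted p = 0.0795 and 0.739). Of 20 genes known to be rhythmic outputs in heart and other tissues, 5 rose and 3 fell, against 7.66% of all probes higher and 10% lower. Cdkn1a, the cell cycle inhibitor p21, was at 11.78, 11.68 and 12.04 on the high side and 9.53 to 10.54, median 10.14, on the low side. It was 3.48-fold higher without overlap (1.80 log2, SE 0.14, adjusted p = 4.89e-05), while a dimmer probe, well above background on 2 high and 6 low arrays, did not pass (-0.16, adjusted p = 0.762). Ucp3, a mitochondrial carrier of muscle, was at 11.04, 11.11 and 11.06 against 10.09 to 10.65 and rose by 0.79 (SE 0.09, adjusted p = 0.000376). Coq10b, of coenzyme Q function, fell by 0.72 in its brightest probe (SE 0.08, adjusted p = 0.000375), while its other 4 tested probes changed by -0.61 to -0.20 and did not pass (adjusted p from 0.0842 to 0.145).

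The 11 P60 arrays took no part in choosing the sides, so the same genes were tested there by their slope on Arntl minus Dbp, with genotype as a covariate. Arntl minus Dbp ran from -7.84 to -1.32 at P60, with 3 arrays, Efnb1cKO 5, WT 6 and Efnb1cKO 6, between -7.84 and -7.50, with the numbers 5, 6 and 6 that the high P20 arrays also bore, and the other 8 from -4.39 to -1.32. Across these arrays 573 of 34917 probes tested (1.64%) passed, 303 with a positive slope (0.868%) and 270 with a negative slope (0.773%). Leaving out 1 array moved this count to between 34 and 498. It was 34 without WT 6, 250 without Efnb1cKO 6, 319 without Efnb1cKO 2, 330 without Efnb1cKO 5, 331 without WT 3, 352 without Efnb1cKO 1 and 379 without WT 5. Of the clock repressors, 9 of 10 had a negative slope past the threshold, and Cry1 did not pass. Of the D-box factors, Tef and Hlf had negative slopes and Nfil3 a positive slope, all past the threshold, and Clock had a positive slope. In all, 13 of 16 clock genes passed, Rora and Cry1 not among them, and leaving out WT 6, 1 of the 3 low arrays, left 5 of them past it, Per1, Per3, Nr1d2, Ciart and Nfil3, with all 13 slopes of the same sign. With only the 8 arrays above -6.5, a fit chosen after the data were seen, no probe passed in limma, although 1953 had an unadjusted p under 0.05 and 12 of the 13 slopes kept their sign.

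Per log2 unit of Arntl minus Dbp at P60, Ciart had the steepest of these slopes, at -0.84 log2 (SE 0.07, adjusted p = 0.000655), and its level ran from 2.46 to 8.98 across the 11 arrays, 10 of them well above background. The slope was -0.47 with normexp background correction and -0.59 with the authors' values, and past the threshold in both. A second, dimmer Ciart probe, not well above background on any high P20 array, had a slope of -0.10 that did not pass (adjusted p = 0.208). Per3 changed by -0.31 per unit (SE 0.02, adjusted p = 5.93e-05), Per2 by -0.29 (SE 0.03, adjusted p = 0.00281) and Nr1d2 by -0.20 (SE 0.01, adjusted p = 0.000195). Per1, which overlapped between the P20 sides, changed by -0.16 per unit at P60 (SE 0.01, adjusted p = 0.000956), and Cry2, also overlapping at P20, by -0.16 (SE 0.02, adjusted p = 0.00386). Nfil3 rose by 0.24 per unit (SE 0.02, adjusted p = 0.000195) and Clock by 0.10 (SE 0.02, adjusted p = 0.0125). Some dimmer probes did not pass at P60, the second of Per2 (-0.17, adjusted p = 0.196), 1 of 2 of Cry2 (-0.13, adjusted p = 0.063) and 2 of 3 of Clock (0.07 and 0.05, adjusted p = 0.0506 and 0.748). Nr1d1 changed by -0.13 per unit (SE 0.02, adjusted p = 0.0122).

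The slopes were then compared between the ages in a fit of all 23 arrays, which was chosen after the data were seen. The slope differed between P20 and P60 for 3658 of 36153 probes (10.1%), and for 6 of the 10 clock repressors. Without WT 6 of P60 it differed for 1560 probes and without WT 5 of P20 for 2285. The slope at P20 minus that at P60 was 0.17 for Per1 (adjusted p = 0.0438), 0.17 for Cry2 (adjusted p = 0.000547), 0.22 for Per2 (adjusted p = 0.00206), 0.10 for Per3 (adjusted p = 0.0098) and 0.46 for Ciart (adjusted p = 0.00171). Of these, Per2, Per3 and Ciart had negative slopes at both ages, less steep at P20, while Per1 and Cry2 had slopes of 0.01 at P20. The difference for Ciart was 0.29 with normexp background correction and 0.36 with the authors' values, past the threshold in both, but its dimmer second probe went the other way (-0.29, adjusted p = 0.00735). The second Per2 probe and the other 2 of Cry2 did not pass (adjusted p = 0.544, 0.0753 and 0.0835). It was -0.20 for Nr1d1 (adjusted p = 0.00282), so that its negative slope was steeper at P20.

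**Figure D3:**
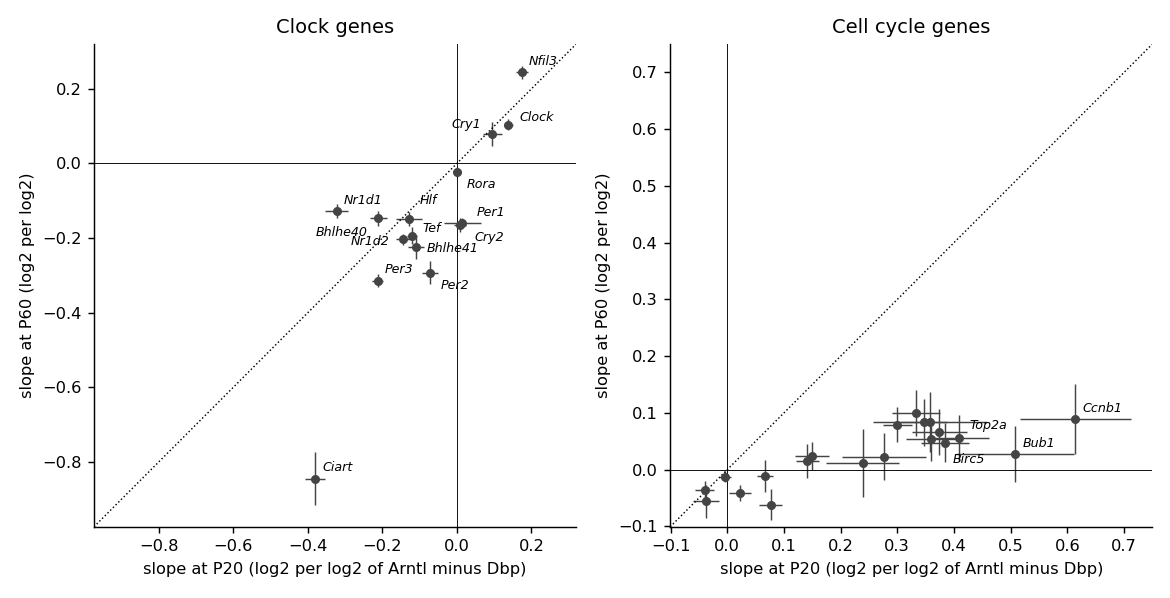
Slope on Arntl minus Dbp at P60 against the slope at P20 for the clock genes (left) and the cell cycle genes (right), in log2 units per log2 unit, with bars of 1 SE and a dotted line of equal slopes. Ciart, Per3 and Nfil3 have slopes away from 0 at both ages, while Ccnb1, Bub1, Top2a and Birc5 lie near 0 at P60.

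Of 20 cell cycle genes tested by their brightest probes, 16 were higher on the high side and none lower, against 7.66% of all probes higher, with a median difference of 1.32, and the 16 did not overlap between the sides, against 17.5% of all probes. Since dim genes could enter only through the high side, the count was also taken over the 14 genes well above background on all 12 arrays, of which 10 were higher. A fit of only the probes well above background on all 12 arrays had 2906 of 31635 higher. With the age score as a covariate 10 of the 20 genes were higher, where 550 of 35838 probes were. Ccnb1, the cyclin of mitotic entry, was at 5.94, 6.09 and 6.24 on the high arrays and 2.57 to 3.84, median 3.44, on the low arrays. Only 2 of the 9 low arrays were well above background, so the difference is a bound, at least 6.40-fold higher on the high side (fitted 2.86 log2, SE 0.27). Ccnb1 met the filter only through the high side, so its call is a description. Birc5, which encodes survivin of the chromosomal passenger complex, was at 8.46, 8.57 and 8.76 against 6.66 to 7.24 and was 3.31-fold higher (1.73 log2, SE 0.11, adjusted p = 2.8e-05). Top2a, the topoisomerase of dividing cells, was at 7.10, 7.23 and 7.59 against 4.90 to 5.98 and was 3.54-fold higher (1.82 log2, SE 0.19, adjusted p = 0.000204). Bub1, a kinase of the spindle checkpoint, was not well above background on any low array and was at least 2.64-fold higher (fitted 2.24 log2, SE 0.44). It too met the filter only through the high side, so its call, which was lost without Efnb1cKO 6, is a description. A bound of this kind sets the mean of the brighter side against that of the dimmer side, where each array not well above background is given the probe's signal or, if larger, the weakest signal that still counts as well above background.

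The 4 genes of this list that did not pass act at the replication fork, although Rrm2, of ribonucleotide reductase, rose by 0.29 (adjusted p = 0.0065). Of the helicase genes, Mcm2 differed by 0.08 (adjusted p = 0.53), Mcm3 by -0.19 (adjusted p = 0.0783) and Mcm5 by -0.17 (adjusted p = 0.277). Of 3 dimmer Mcm3 probes, 2 passed as lower (-0.39, adjusted p = 0.00251, and -0.17, adjusted p = 0.0353). Pcna, the polymerase clamp, differed by -0.02 (adjusted p = 0.771). All 16 called genes had the same direction among WT and among Efnb1cKO arrays, and also within slides 2 and 3. At P60, where arrays were not split, none of the 20 slopes passed the threshold in limma, and 4 had an unadjusted p under 0.05, a share near that of all probes (5626 of 34917). Among the 16 genes well above background on most arrays of each side and of P60, the slope differed between the ages for 10, against 10.1% of all probes. In 9 of the 20 genes every P60 array lay above every low P20 array, and in 1, Rrm2, below. Ccnb1 at P60 was between 4.72 and 6.25, Birc5 between 7.65 and 8.49 and Top2a between 6.49 and 7.55, so the low P20 arrays were the lowest in the series for these 3.

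The promoter of Cdk1, the kinase that binds cyclin B, is shown for the element that many genes of mitosis share, the cell cycle homology region. It lies on the minus strand at chr10:69352863-69353162 of GRCm38.p6 and holds 2 copies of TTTGAA, shown in capitals. Cdk1 itself was higher on the high side by 1.38 (SE 0.22, adjusted p = 0.00212).
Cdk1 promoter: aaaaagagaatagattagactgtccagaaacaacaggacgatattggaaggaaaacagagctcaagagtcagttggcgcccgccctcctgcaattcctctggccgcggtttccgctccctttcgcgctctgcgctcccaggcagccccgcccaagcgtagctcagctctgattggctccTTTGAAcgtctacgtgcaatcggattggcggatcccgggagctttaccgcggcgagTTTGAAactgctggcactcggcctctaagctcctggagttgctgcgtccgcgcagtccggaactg
Searched on both strands and chosen after the data were seen, TTTGAA was found in 11 of the 18 cell cycle genes with a promoter in the table, among them Top2a, Ccnb2, Plk1 and also Mcm2, which did not differ past the threshold. It is short, and 17.9% of all promoters of this length held it. None of these 18 promoters held the E-box or the D-box.

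Genes of fasting and fatty acid use were higher as well, with 11 of 21 higher, 1 lower and a median difference of 0.20, against 7.66% of all probes higher, 10% lower and a median of -0.03. With the age score as a covariate 6 were higher, where 550 of 35838 probes were, and on the slides that hold both sides 7, where 1152 were. Efnb1cKO arrays alone hold 1 high array and are not counted here. Acot1, an acyl-CoA thioesterase, was at 13.04, 13.07 and 12.56 against 11.18 to 11.82 and was 2.67-fold higher (1.42 log2, SE 0.13, adjusted p = 0.000119). Pdk4, the kinase that turns off pyruvate dehydrogenase, was at 15.81, 15.98 and 15.72 against 13.79 to 14.99 and was 2.56-fold higher (1.35 log2, SE 0.22, adjusted p = 0.00218). Angptl4, an inhibitor of lipoprotein lipase, was at 13.38, 13.82 and 12.58 against 11.34 to 12.42 and was 2.54-fold higher (1.34 log2, SE 0.24, adjusted p = 0.00382). These 3 did not overlap between the sides. Pdk4 is also counted among the rhythmic outputs, as is Ucp3 of this list. Lpl, the lipase itself, was the member that fell, by 0.30 (adjusted p = 0.00235). Of its 5 other probes, 2 also fell and 3 were higher without passing (0.16 to 0.30, adjusted p from 0.407 to 0.558).

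At P60, 1 of the 21 fasting genes, Plin5, which coats lipid droplets, passed with a positive slope, just inside the threshold (0.07, adjusted p = 0.0491, and 0.0501 in a second probe), against 1.64% of all probes, and 4 had an unadjusted p under 0.05, again near the share of all probes. For Acot1 the P20 slope exceeded the P60 slope by 0.30 (adjusted p = 0.000714), and the slope differed between the ages for 7 of the 21 genes, against 10.1% of all probes. The P60 levels of Acot1, 10.71 to 11.59, lay within or below the low P20 range.

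**Figure D4:**
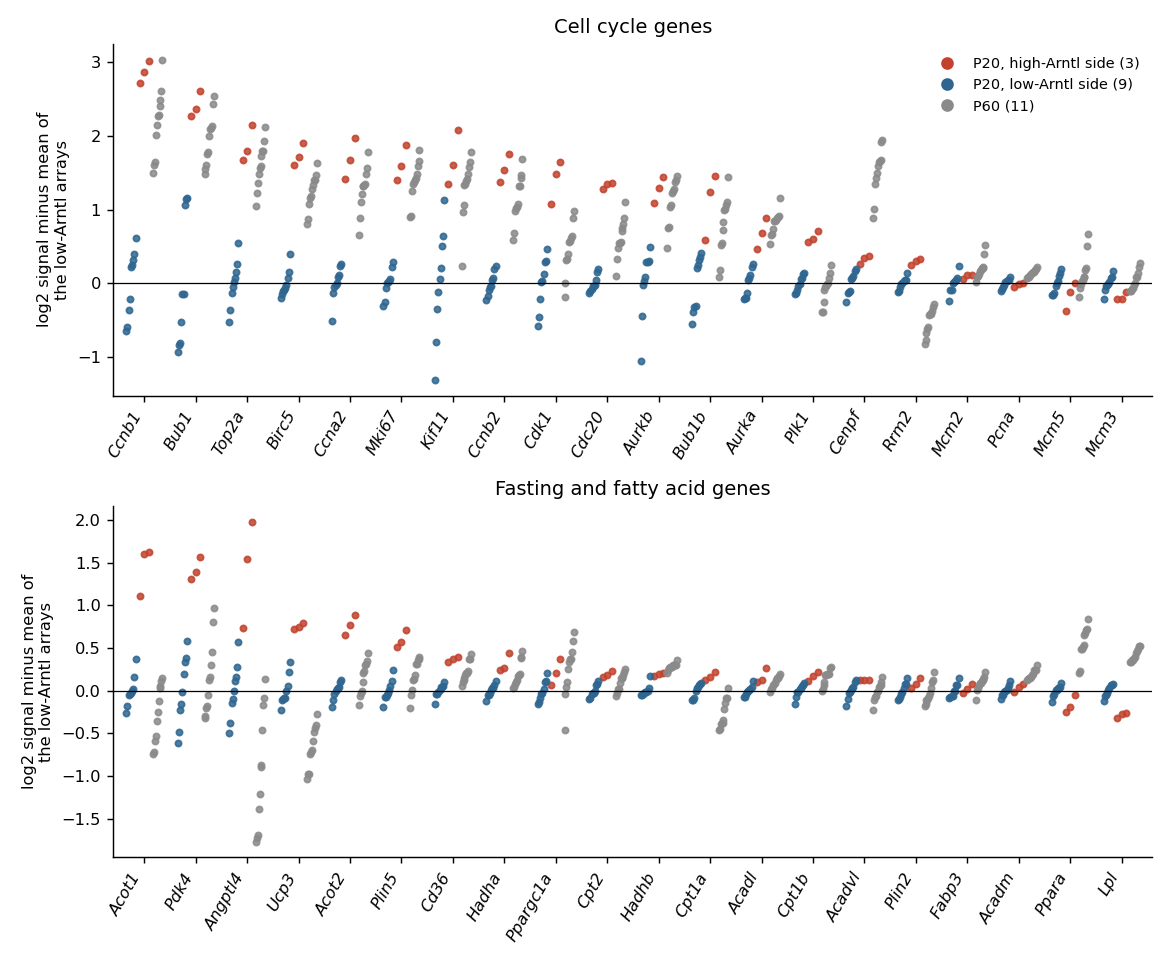
Cell cycle genes (top) and fasting genes (bottom) on the 3 high and 9 low P20 arrays and the 11 P60 arrays, as the log2 signal minus the gene's mean over the low side, 1 point per array. Ccnb1, Birc5 and Top2a are lower on the low P20 arrays than on the high P20 and P60 arrays, while Acot1, Pdk4 and Angptl4 are highest on the high P20 arrays.

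Of 15 glucocorticoid response genes, 8 were higher and 1 lower, with a median difference of 0.46, against 7.66% of all probes higher and 10% lower. This list shares genes with others, among them Cdkn1a with the rhythmic outputs, Per1 with the clock repressors and Dusp1 with the immediate early genes. With the slide as a block 3 were higher, where 1410 of 35838 probes were. In WT arrays alone 2 were higher, where 1126 probes were, and with the age score 5, where 550 were. Leaving out WT 5 or Efnb1cKO 6 left 3, where 1629 and 1614 probes were higher. Leaving out WT 3 or WT 4 left 5, where 2259 and 2222 were. Ddit4, an inhibitor of mTOR signalling, was at 14.65, 13.46 and 14.35 against 12.19 to 13.72 and rose by 1.21 (SE 0.29, adjusted p = 0.0175), with WT 6 inside the low range, and the call was lost without WT 5 or Efnb1cKO 6 (adjusted p up to 0.0822). Sgk1, a kinase induced by corticosteroids, overlapped in the same way, with WT 6 at 11.88 inside the low range of 11.44 to 12.28, and rose by 0.72 (SE 0.22, adjusted p = 0.0473), a call lost without any 1 of 10 arrays (up to 0.205). The metallothionein gene Mt1 rose by 0.55 (SE 0.06, adjusted p = 0.000407). Lcn2, a secreted siderophore-binding protein, fell by 0.80 (SE 0.12, adjusted p = 0.00179). At P60, 2 of the 15 had a positive and 1 a negative slope past the threshold, against 0.868% and 0.773% of all probes.

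Of 15 heat shock and temperature genes, 1 rose and 3 fell, and of 20 immediate early genes, 3 rose and 1 fell, against 17.7% of all probes called in either direction. The cold-induced RNA-binding genes moved in opposite directions, with Rbm3 up by 0.28 and Cirbp down by 0.26, and the chaperone genes Hspa4l and Hspe1 fell by 0.31 and 0.27. Without 1 array the adjusted p reached 0.157 for Cirbp (lost in 6 of 12 cases, WT 1, WT 2, WT 4, WT 5, Efnb1cKO 5 and Efnb1cKO 6) and 0.0887 for Rbm3 (lost without WT 6 or Efnb1cKO 6). Cirbp also had a negative slope at P60, of -0.13 (adjusted p = 0.0037). The other 2 Cirbp probes did not pass at P20 (0.16 and -0.22, adjusted p = 0.439 and 0.0815), nor did 1 of 3 further probes of Rbm3 (-0.07, adjusted p = 0.829) and 2 of 3 of Hspa4l (-0.21 and -0.05, adjusted p = 0.0767 and 0.656). Among the immediate early genes, Myc rose by 0.61 (SE 0.12, adjusted p = 0.00695; 0.11, adjusted p = 0.79 in a second probe), the phosphatase gene Dusp1 by 0.54 (adjusted p = 0.0389) and Ier2 by 0.34 (adjusted p = 0.0115), while Ier3 fell by 0.70 (SE 0.08, adjusted p = 0.000271). The call of Dusp1 was lost in 7 of 12 cases of leaving out 1 array (adjusted p up to 0.258), and that of Ier2 without WT 6 or Efnb1cKO 6 (up to 0.0763).

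Of 20 genes that mark the postnatal maturation of the ventricle, 2 rose and 5 fell, against 7.66% of all probes higher and 10% lower, so the count of rises was near that share. H19 and Igf2, imprinted neighbours that are shut down after birth, rose by 0.67 (SE 0.11, adjusted p = 0.00304) and 0.60 (SE 0.07, adjusted p = 0.000424). Nppa, the atrial natriuretic peptide gene, was at 14.46, 14.81 and 15.17 on the high side and 15.74 to 17.20, median 16.21, on the low side, and fell by 1.30 (SE 0.19, adjusted p = 0.00125). Nppb, its ventricular relative, was at 12.54, 12.85 and 13.04 against 12.98 to 14.10, so that the sides overlapped, and fell by 0.92 (SE 0.20, adjusted p = 0.0106), a call lost without WT 5 (adjusted p = 0.0553). At P60 Nppb had a slope of the opposite sign, 0.10 (SE 0.02, adjusted p = 0.0451), and its slope was lower at P20 by 0.30. Of 5 atrial markers only Nppa passed, and their summed level was 27063 to 49425 on the high side and 58123 to 327167 on the low side. Sln, Myl7 and Myl4, which define atrial muscle, differed by -1.44, -1.14 and -1.08 with wide errors (adjusted p = 0.596, 0.615 and 0.529), and Bmp10 did not pass the filter. The summed level of these markers, Nppa included, moved with Nppa, and their part in the result was not tested.

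The other marker lists hold genes of cell types that a ventricle sample can contain, and their counts stand against 7.66% of all probes higher and 10% lower. Endothelial markers rose in 5 of 6 genes, with summed levels of 22404 to 24231 on the high side and 17291 to 19933 on the low side. Immune markers fell in 6 of 10 and rose in 1, with sums of 22351 to 23286 against 25023 to 29553. Fibroblast markers rose in 4 of 7, with overlapping sums of 153857 to 170928 against 132452 to 161521. The adipocyte list had 1 of 7 higher, Fabp4, by 0.51 (adjusted p = 0.000152), while the other 6, among them Adipoq at -1.04 and Cfd at -1.89, had differences below 0 that did not pass, and the list median was -1.04. The sums, nearly all of them the signal of Fabp4, were 110236 to 115226 against 73303 to 84321. Erythroid markers had 2 of 6 higher, Ahsp by 3.17 (adjusted p = 0.0325) and Slc4a1 by 2.51 (adjusted p = 0.0332), with overlapping sums of 294846 to 312231 against 251582 to 356033. Ventricular cardiomyocyte and skeletal muscle markers had 1 gene lower each, Tnni3 of 8, whose second probe did not pass, and Tnni2 of 6, and the smooth muscle list had none of 5 past the threshold in limma. The skeletal markers Actn3, Myh1 and Myh2 did not pass the filter, and of the pancreas and intestine list only Cpa1 did and was higher by 0.48 (adjusted p = 0.0239). The part of these shifts in the differences above was not tested. At P60 no gene of any marker list passed in limma in its brightest probe, although 2 other probes of the fibroblast marker Col3a1 did (slopes of 0.23 and 0.22, adjusted p = 0.0145 and 0.0171).

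The 10 genes that led the rise outside the lists were Iqgap3, Trim10, Pif1, Fam64a, Ska1, Prc1, Kif14, Adamts4, Fabp7 and Cdc25c. The leading probes of Iqgap3, Pif1, Ska1, Kif14 and Cdc25c met the filter only through the high side, so their calls are a description. Iqgap3, a scaffold protein gene of proliferating cells, was at 5.17, 5.52 and 5.56 on the high side and 0.99 to 3.70 on the low side. There 1 of 9 arrays was well above background, so that it was at least 4.26-fold higher. Fam64a, which acts in mitosis, rose by 2.54, and Cdc25c, the phosphatase of mitotic entry, was at least 2.75-fold higher with 1 low array well above background. Prc1, of the dividing spindle, was at least 5.12-fold higher in a probe well above background on 4 low arrays and rose by 1.95 in one that was so on all 12 (adjusted p = 0.00012), while its other 2 tested probes did not pass. Trim10, known from red cell formation, was well above background on 4 low arrays and was at least 4.64-fold higher. Ska1 of the kinetochore was not well above background on any low array and was at least 1.57-fold higher. The probes that led for Pif1, a DNA helicase gene, and for the mitotic kinesin gene Kif14 were not well above background on any low array either, with bounds of 1.78-fold and 1.97-fold. Each of these genes had another probe well above background on all 12 arrays that did not pass (0.05, adjusted p = 0.721 for Pif1, and 0.16, adjusted p = 0.537 for Kif14), so their rise rests on 1 probe. Adamts4 and Fabp7 also had slopes past the threshold at P60. Adamts4, a protease of the extracellular matrix, was at 7.50, 7.70 and 7.50 against 4.52 to 5.50 (2.36 log2, SE 0.17, adjusted p = 4.32e-05) and had a P60 slope of 0.41 (SE 0.02, adjusted p = 5.93e-05). Fabp7, a fatty acid binding protein gene, was at 5.95, 6.44 and 6.25 against 3.30 to 4.63, with 7 of 9 low arrays well above background (2.30 log2, SE 0.24, adjusted p = 0.000214) and had a P60 slope of 0.17 (SE 0.02, adjusted p = 0.00342).

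Bdh1, the mitochondrial enzyme that interconverts the ketone bodies, led the genes that fell. It was at 5.45, 4.80 and 5.78 on the high side and 7.47 to 8.30, median 7.77, on the low side, a fall of 2.40 log2 (SE 0.15, adjusted p = 2.62e-05), and at P60 it stood far higher, at 11.87 to 12.88. Among the other falls, Ppp1r1b, a phosphatase inhibitor gene, changed by -1.80 in its leading probe and by -0.32 in another, which did not pass (adjusted p = 0.361). C3, of the complement cascade, changed by -1.67 and the kinase gene Ttbk1 by -1.61. Ropn1 and Slamf1 were not well above background on any high array and were at least 2.08- and 2.28-fold lower. The leading Pacsin1 probe was at least 2.20-fold lower in the same way, while another, well above background on all 12 arrays, did not differ past the threshold (-0.09, adjusted p = 0.574). Ppl, of the cell envelope, and Wisp2, a secreted signalling protein gene, changed by -1.48 and -1.44 and had negative slopes at P60 too (-0.13, adjusted p = 0.0409, and -0.17, adjusted p = 0.0164), that of Ppl not past the threshold in a second, dimmer probe (adjusted p = 0.255).

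Of 18 genes of Eph receptors and ephrins, the family of the deleted gene, 2 were higher and 4 lower, against 7.66% of all probes higher and 10% lower. Ephb1, a receptor of the B class, was at 8.37, 8.15 and 8.55 on the high side and 9.30 to 9.60 on the low side and fell by 1.14 (SE 0.09, adjusted p = 4.72e-05), and by 0.36 in a second probe (adjusted p = 0.0276). The receptor gene Epha1 rose by 0.70 (SE 0.11, adjusted p = 0.00224) and the ligand gene Efna2 fell by 0.46 (SE 0.08, adjusted p = 0.00449). Efnb1 itself was higher on the high side by 0.51 with genotype accounted for (SE 0.08, adjusted p = 0.00222). None of 17 tested family genes had a P60 slope past the threshold in limma, and 2 had an unadjusted p under 0.05.

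Because Efnb1 differed between the sides, its level was set out by genotype within each side. Its probe lies at chrX:96343505-96343564 on mm9.
Efnb1 probe: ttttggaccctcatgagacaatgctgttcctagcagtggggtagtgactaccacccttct
On the low side, Efnb1 was at 11.66, 11.73, 11.80 and 11.62 in WT 1 to 4 and at 11.47, 11.53, 11.38, 11.66 and 11.58 in Efnb1cKO 1 to 5. The genotypes overlapped, with means of 11.70 ± 0.08 (SD, n = 4) and 11.53 ± 0.11 (SD, n = 5), a difference of -0.18 (two-sided exact permutation p = 0.0397, 126 splits). Leaving out 1 of these arrays gave -0.21 to -0.14, and the p stayed below 0.05 only without Efnb1cKO 4 (0.0286, against 0.0536 to 0.0893 for the other 8). With quantile normalisation it was -0.17 (exact p = 0.0556). On the high side, it was 12.34 and 12.36 in WT 5 and WT 6 and 11.81 in Efnb1cKO 6, a difference of -0.54 that 2 arrays against 1 cannot test. The Efnb1cKO array of the high side was thus above every WT array of the low side. Over all P20 arrays the difference was -0.35 (two-sided exact permutation p = 0.0368, 924 splits), and at P60, where WT arrays were at 11.19 to 11.44 and Efnb1cKO arrays at 10.80 to 10.94, it was -0.48 without overlap (two-sided exact permutation p = 0.00216, 462 splits).

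**Figure D5:**
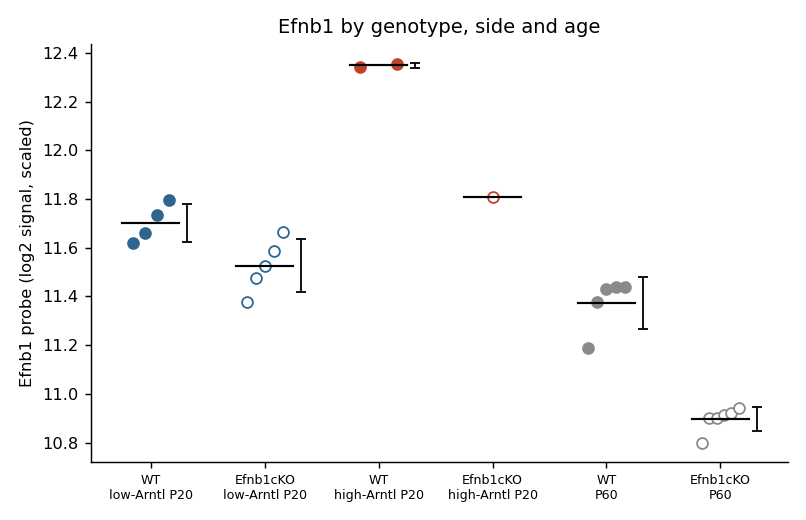
Efnb1 level (log2 scaled intensity) by genotype for the low P20 side, the high P20 side and P60, 1 point per array, the mean as a bar and the SD as a bracket where there are at least 2 arrays. Efnb1cKO arrays lie 0.18 below WT on the low side, 0.54 below on the high side and 0.48 below at P60, and the high Efnb1cKO array, at 11.81, lies above all 4 low WT arrays.

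The genotypes were also compared at P20 with and without the side. With the side as a covariate, 8 probes of 35843 (0.0223%) passed between Efnb1cKO and WT, and without it 7 (0.0195%), with 6 in common. Leaving out 1 array gave 2 to 8 probes, and the low side alone gave 1. The estimate for Efnb1 went from -0.35 (SE 0.14, adjusted p = 1.0) without the side to -0.26 (SE 0.07, adjusted p = 0.486) with it, so its SE was smaller with the side, and it passed in neither fit. Myh7, the slow myosin heavy chain gene, was the largest call, higher in Efnb1cKO by 3.82 with the side as a covariate (adjusted p = 1.25e-09), and by 3.78 among the low arrays (two-sided exact permutation p = 0.00794) and 3.98 among the 3 high arrays. This call rests on 1 probe, since a second Myh7 probe, well above background on all 12 arrays, differed by -0.02 with the side as a covariate (SE 0.11, adjusted p = 1.0).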

How the data were processed

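Single-colour Agilent arrays of 12 P20 and 11 P60 left ventricles, 1 mouse per array, were analysed. The deposited scanner files held the green intensity of 62976 spots per array, 3671 of them controls. Per the file headers, Feature Extraction 10.10.1.1 had subtracted background from the processed intensity and corrected it for position. The authors' log2 values, as deposited in the series table, served as an alternative. No step between arrays is recorded for the scanner intensities.

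Control and outlier spots were left out, spots of 1 probe averaged, and each array's log2 signal was set relative to its 75th percentile plus a common constant. Probes well above background on at least 3 arrays were tested with limma 3.58.1 in R 4.3.3, with side and genotype as terms, Benjamini-Hochberg adjustment over all probes and a threshold of 0.05. Tests were two-sided. Arntl and Dbp, which set the sides, were left out. P60 arrays were fitted on Arntl minus Dbp with genotype. A gene is represented by its brightest tested probe, and each of the 20 leading genes outside the lists by its called probe of largest difference. The number of arrays limits the precision. The fit was checked on simulated data.

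The named genes are Efnb1, every tested member of the 3 lists of clock activators, repressors and PAR bZIP factors, up to 4 called members of each other list, and the 10 highest and 10 lowest other genes with sides that do not overlap. A few genes chosen by this rule are not reported here, although counts over lists include them. Cdk1, Rrm2, Mcm2, Mcm3, Mcm5, Pcna, Lpl, Plin5, Mt1, Myh7 and the single markers were named outside this rule after their values were seen. The members and the lists were chosen with earlier results of these data known. Groups came from the labels and sides from the arrays. Each array is from a separate mouse. The alternatives were other normalisation, background correction and filters, blocks for slide, for place on it or for replicate number, array weights, another prior, other covariates, single genotypes and leaving out arrays.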

Additional observations from a re-analysis of the deposited data

Results flagged for a closer look

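For 31 of the 67 named genes given here, the slope on Arntl minus Dbp differed between P20 and P60 past the limma threshold, 18 with a more positive and 13 with a more negative slope at P20. Genes named for a large difference between the P20 sides were favoured to have a steep slope at P20, so the number is a description. The difference is not given for 10 further genes, whose probes fell short of being well above background on most arrays of each P20 side and of P60. The values that follow are the slope at P20 minus that at P60, in log2 per log2 unit. Among clock genes and their partners, the difference was 0.46 for Ciart, 0.22 for Per2, 0.17 for Per1 and for Cry2, 0.10 for Per3, 0.07 for Usp2 and for Sfpq, -0.09 for Timeless and -0.20 for Nr1d1. Among cell cycle genes it was 0.35 for Top2a and 0.34 for Birc5.

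Among fasting and output genes it was 0.30 for Acot1 and 0.17 for Ucp3. Among response genes it was 0.17 for Myc, 0.10 for Rbm3, -0.07 for Hspa4l, -0.08 for Hspe1 and -0.37 for Lcn2. Maturation genes had 0.11 for Igf2, -0.25 for Nppa and -0.30 for Nppb. The Eph and ephrin genes had 0.16 for Epha1, 0.08 for Efnb1, -0.11 for Efna2 and -0.23 for Ephb1. Leading genes that were higher on the high side had 0.43 for Fam64a and 0.34 for Fabp7. Leading genes that were lower had -0.48 for Bdh1, -0.30 for C3, -0.29 for Ttbk1 and -0.20 for Ppl.

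On the low-Arntl side, 5 genes had 1 array far from the other 8, by a gap over the range above Dixon's critical value of 0.493. Chance flags about 1 in 20 groups in this way. Efnb1cKO 2 was high in Per2, at 10.91 with the next array at 10.72, and low in Dusp1, at 11.68 with the next at 12.04. Efnb1cKO 1 was high in Nppa, at 17.20 with the next at 16.47, in C3, at 12.65 with the next at 11.79, and in Ppp1r1b, at 9.59 with the next at 8.5.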

How the results depend on the processing

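The count of 6337 probes between the sides was 4041 without a filter on dim probes, 3410 with the slide as a block, 1075 with the age score, 2551 in WT arrays alone, 90 in Efnb1cKO arrays alone, 2793 on the slides that hold both sides (chosen after the data were seen) and 3630 to 6511 with 1 array left out. With the replicate number as a block it was 0 in limma, with 3466 probes at an unadjusted p under 0.05. Only number 5 holds both sides, so that block rests on 1 pair of arrays. The correlation of same-numbered deviations was above 0.1 for 4 of the 6 numbers (0.0313 to 0.373 over all 6), short of all 6, so the numbers were not taken to pair the arrays. Whether they mark shared days of collection is not given in the sources used here. The causes of these shifts were not tested.

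At P60 the count of 573 was 199 without a filter, 359 with array weights, 1033 with a trend and robust prior, 165 with the slide as a block, 34 to 498 with 1 array left out, 0 in only the 8 arrays above -6.5 and 0 with the replicate block (2285 unadjusted, 12 clock genes among them). The count of 3658 for the difference between the ages was 1560 to 4115 with 1 array left out, 3711 with normexp and 2768 with the authors' values. The 8 probes between genotypes were 5 with normexp, 3 with the slide, 1 with the place on the slide, 1 with the replicate block, 1 on the low side alone and 2 to 8 with 1 array left out. The Efnb1 difference of -0.18 on the low side was -0.17 after quantile normalisation (exact p = 0.0556), -0.16 with median centring (exact p = 0.0556), -0.16 with the authors' values (exact p = 0.0635) and -0.21 to -0.14 with 1 array left out.

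Over 2083 repeats of the differences of 70 named genes, 1765 kept direction and side of the threshold, 307 lost the call and 11 changed sign. With the replicate block 66 of the 67 named calls were lost and the remaining one, Cry1, changed sign, and the calls lost were 59 in Efnb1cKO arrays alone, 36 with the age score and 20 in WT arrays alone. Of the 67, 53 kept the call whichever single array was left out, and 22 kept it in every alternative run other than the replicate block and the Efnb1cKO arrays alone. Of the P20 differences that changed sign, only that of Cry1 was a call. Rora was -0.064 with the replicate block and -0.026 with the age score. Per1 was -0.047 in WT arrays alone and -0.075 to 0.416 with 1 array left out. Cry1 was -0.065 with the replicate block. Cry2 was -0.0025 with the slide, -0.021 with the age score, -0.12 in Efnb1cKO arrays alone, -0.0078 on the slides that hold both sides and -0.042 to 0.118 with 1 array left out. The P60 slope of Cry1 was -0.0088 with the replicate block, and that of Bhlhe41 was 0.019 in only the 8 arrays above -6.5. In limma with all 23 arrays, 4 of the 16 clock genes passed between the P20 sides.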
